A study of Mus musculus with 4 samples.

Results

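The interleukin-1 family was examined in cultured mouse primary myoblasts with and without Tet2. The 10 genes are 4 agonist ligands (Il1a, Il1b, Il18 and Il33), the receptor antagonist Il1rn, 4 receptor genes (Il1r1, Il1r2, Il1rl1 and Il1rap) and the protease gene Casp1. They were chosen by symbol from the 24445 genes of the deposited table, and all 10 were found. The cells came from C57BL/6 mice, wild type (WT) in one group and lacking functional Tet2 (Tet2 KO) in the other, with 2 libraries in each group. Tet2 is an enzyme that oxidises 5-methylcytosine, and the knockout is a constitutive deletion of exon 3, so every cell of the animal carried it. By the study's general statement on animals, the mice were males 8 to 10 weeks old. In both groups hindlimb muscle was the source of the satellite cells, its resident stem cells, which were sorted as cells without CD45, CD11b, CD31 and Sca1 and with CD34 and integrin alpha 7. They were grown on collagen in a proliferation medium, called T cell medium in the labels, for at least 3 days. Whether the 2 libraries of a group came from separate animals is not given in the sources used here.

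Ligands of this family are cytokines of inflammation and tissue injury. IL-1α and IL-1β bind the receptor encoded by Il1r1, IL-33 binds the receptor encoded by Il1rl1 (ST2), and each then recruits the shared co-receptor encoded by Il1rap to signal through MyD88 to NF-κB. IL-18 uses a separate pair of chains, encoded by Il18r1 and Il18rap. The product of Il1r2 binds IL-1 without signalling and acts as a decoy, the product of Il1rn blocks Il1r1, and caspase-1 cuts the precursors of IL-1β and IL-18 into their active forms inside inflammasomes. In injured muscle IL-1β comes largely from leukocytes and IL-33 from stromal cells.

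Expression was deposited as 1 FPKM value per gene and group, that is, fragments scaled to the length of the transcript and to the mapped fragments. These values carry no standard deviation or interval, no difference was tested here, and the differences have no replicate check. The depth of the libraries is unknown. Differences are given as the ratio of the FPKM values and as log2((Tet2 KO FPKM + 1) / (WT FPKM + 1)), named the log2 difference, in which the pseudocount of 1 understates the change of low genes. A gene was called past 2-fold when its log2 difference reached 1 in either direction and its mean FPKM over both groups was at least 1. Of the 11692 genes at that level, 243 (2.08%) were past 2-fold higher in Tet2 KO and 142 (1.21%) past 2-fold lower.

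The promoters shown here belong to the receptor and protease genes on which the comparison turned, the 3 with the largest differences and Il1rap, which had almost none. Because the deleted enzyme acts on methylated CG pairs, the 250 bases before each RefSeq transcription start (RefSeq of build GRCm38.p6, found by exact match in mm9) are printed with their CG pairs in capitals. All windows are on the plus strand of mm9. The Casp1 window is chr9:5298267-5298516, that of Il1r2 is chr1:40142688-40142937 and that of Il1rap is chr16:26581541-26581790. Il1rl1 has a distal start, with the window chr1:40486165-40486414, and a proximal start, with the window chr1:40496224-40496473.
Casp1: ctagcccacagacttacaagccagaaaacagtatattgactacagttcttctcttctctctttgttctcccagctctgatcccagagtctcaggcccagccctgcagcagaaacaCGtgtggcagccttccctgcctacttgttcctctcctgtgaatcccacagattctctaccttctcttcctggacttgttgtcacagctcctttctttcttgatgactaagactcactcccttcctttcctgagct
Il1r2: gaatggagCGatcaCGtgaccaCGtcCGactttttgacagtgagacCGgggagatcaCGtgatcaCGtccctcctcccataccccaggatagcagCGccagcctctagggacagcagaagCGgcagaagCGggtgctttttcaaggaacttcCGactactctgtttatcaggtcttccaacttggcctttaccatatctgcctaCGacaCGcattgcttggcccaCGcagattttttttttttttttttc
Il1rl1 distal: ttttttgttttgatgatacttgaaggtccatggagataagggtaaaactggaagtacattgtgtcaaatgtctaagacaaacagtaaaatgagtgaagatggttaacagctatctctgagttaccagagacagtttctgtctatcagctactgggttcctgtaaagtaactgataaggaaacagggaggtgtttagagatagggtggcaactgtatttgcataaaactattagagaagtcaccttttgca
Il1rl1 proximal: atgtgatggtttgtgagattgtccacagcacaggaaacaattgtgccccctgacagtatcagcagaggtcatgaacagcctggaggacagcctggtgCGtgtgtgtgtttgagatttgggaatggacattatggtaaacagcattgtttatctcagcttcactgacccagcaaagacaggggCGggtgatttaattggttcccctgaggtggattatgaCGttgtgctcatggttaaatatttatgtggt
Il1rap: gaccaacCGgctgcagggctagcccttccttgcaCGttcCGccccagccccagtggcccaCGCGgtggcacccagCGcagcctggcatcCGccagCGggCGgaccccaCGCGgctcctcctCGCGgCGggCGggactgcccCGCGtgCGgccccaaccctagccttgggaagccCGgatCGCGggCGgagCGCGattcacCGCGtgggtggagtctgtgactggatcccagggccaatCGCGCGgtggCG

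The windows differed widely in CG pairs. Il1rl1 had 0 CG pairs before its distal start and 3 before its proximal start, and Casp1 had 1. Il1r2 had 14, which 27.3% of all windows exceeded, and Il1rap had 30. Over all 32851 RefSeq windows of this length the median was 6 CG pairs, with quartiles of 2 and 16, and only 5.19% of windows held more than that of Il1rap. Of the 15 windows of the 10 members, those of Il1r2 and Il1rap and 1 of the 2 of Il1r1, with 7 CG pairs, were above the median. The remaining 12 windows held between 0 and 4. No methylation value was used here, so these counts describe the sequence only.

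**Figure D1:**
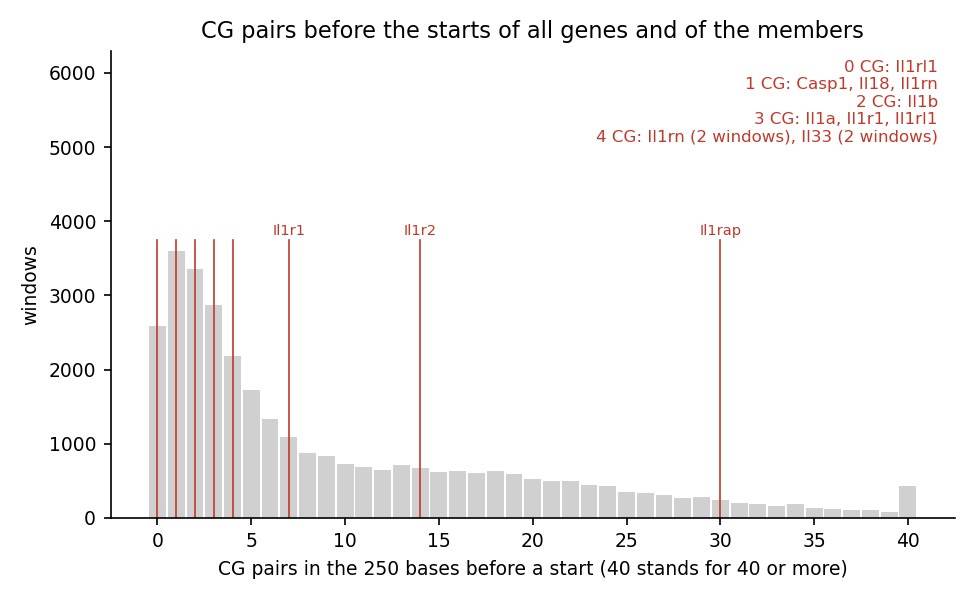
Number of CG pairs (x axis) in the 250 bases before each of 32851 RefSeq starts, as grey bars counting windows (y axis), with red lines at the 15 windows of the members. Most members lie at 4 or fewer, Il1r2 at 14 and Il1rap at 30.

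The same windows were searched on both strands for 4 short motifs. The E-box CAGCTG, a site of MyoD, was found in 1 member window, the upstream window of Il1rn, against 4271 of all 32851 windows. The PU.1 motif GAGGAAG, a site of a myeloid transcription factor, was found before Il1a alone among the members, against 10.6% of all windows. The AP-1 motif TGANTCA was found before Il1a and in the upstream window of Il1rn, against 6.75% of all windows. The NF-κB motif GGGANTTTC was found in no member window, against 0.941% of all windows. These are matches of letters in 1 short window and not binding sites.

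Among the 10 members, 8 had a higher FPKM in Tet2 KO and 2 a lower one. With a mean of 1 FPKM or more, 6 of 8 members were higher in Tet2 KO, against 48.8% of all such genes. Casp1 and Il1r2 differed most by ratio, at 3.74-fold and 3.79-fold higher, followed by Il1rn at 3.01-fold and Il1rl1 at 2.17-fold. Il33 and Il1r1 were higher by 1.45-fold and 1.46-fold, Il18 and Il1rap were nearly level, and Il1b was lower. Of the 8 members with a mean of 1 FPKM or more, 2 (Casp1 and Il1r2) were past 2-fold higher, against 2.08% of all genes, and 0 were past 2-fold lower, against 1.21%. Il1r2 reached the minimum mean only through its Tet2 KO value, since it had 0.794 FPKM in WT. Il1rl1 lay just under the 2-fold limit, with a log2 difference of 0.999. The median log2 difference of the 8 was 0.48, against -0.0044 for all genes at that level, of which the middle 80% lay between -0.25 and 0.24. Il1a and Il1rn had a mean FPKM under 1 and stand outside these counts; both were higher in Tet2 KO. Markers of myeloid cells were also higher in Tet2 KO, by a median of 4.01-fold, as described after the gene lists.

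**Figure D2:**
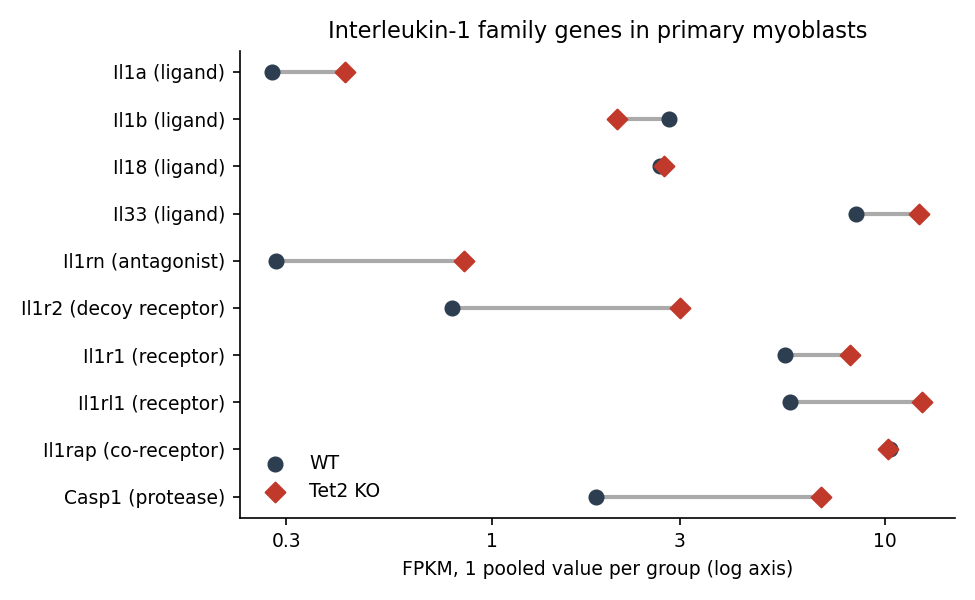
FPKM (x axis, log scale) of the 10 genes in WT (dark circles) and Tet2 KO (red diamonds), 1 pooled value per group and no error. Casp1 and Il1r2 show the widest gaps, Il18 and Il1rap almost none, and Il1b lies further left in Tet2 KO.

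The ligands were compared first. Il33, on chromosome 19 from 29999604 to 30035205 of mm9, was the most abundant of them, with 12.2 FPKM in Tet2 KO against 8.42 in WT. It encodes a nuclear cytokine released from damaged cells. Its log2 difference of 0.48 was exceeded by 4.53% of all genes. Il18, on chromosome 9 from 50373473 to 50389942, had 2.73 and 2.68 FPKM, a log2 difference of 0.02. Il1b, on chromosome 2 from 129190314 to 129201469, was the only ligand that was lower, with 2.08 FPKM in Tet2 KO against 2.81 in WT and a log2 difference of -0.31. Il1a, the neighbour of Il1b on chromosome 2 from 129123106 to 129135708, was low in both groups, at 0.423 and 0.277 FPKM. The 2 genes of classical IL-1 thus stood in opposite directions, and the FPKM of Il1b was 4.91 times that of Il1a in Tet2 KO and 10.2 times in WT. The fragments behind values this low are unknown. The summed FPKM of the 4 ligands was 17.4 in Tet2 KO and 14.2 in WT.

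The inhibitors of IL-1 among the members, Il1rn and Il1r2, were both higher in Tet2 KO. Il1rn lies on chromosome 2 from 24192380 to 24207011 and its level was 0.851 FPKM in Tet2 KO against 0.283 in WT. That difference is 3.01-fold as a ratio but only 0.53 on the log2(FPKM + 1) scale. Il1r2 lies on chromosome 1 from 40133057 to 40182070. It showed 3.01 FPKM in Tet2 KO against 0.794 in WT, with a log2 difference of 1.16 that 1.57% of all genes exceeded. Its mean FPKM of 1.90 passed the minimum through its Tet2 KO value, since its WT value lay under 1. Relative to the signalling receptor gene Il1r1, the FPKM of the decoy was 0.370 in Tet2 KO and 0.143 in WT. Relative to Il1b, the FPKM of Il1rn was 0.410 and 0.101.

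Among the signalling receptors, Il1rl1 differed most. It lies on chromosome 1 from 40486415 to 40522259, with 11 exons in the longest coding transcript of GENCODE vM1, and encodes both the membrane receptor for IL-33 and a shorter soluble form that traps it. Il1rl1 had 12.4 FPKM in Tet2 KO against 5.71 in WT, a ratio of 2.17-fold. The value covers all transcripts of the gene, so membrane and soluble forms and the starts shown above cannot be told apart. Its FPKM was close to that of its ligand gene in Tet2 KO, where Il33 stood at 0.980 of Il1rl1, while in WT it stood at 1.47.

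Il1r1, which encodes the signalling IL-1 receptor, lies on chromosome 1 from 40281925 to 40373022. It had 8.14 FPKM in Tet2 KO against 5.57 in WT, a log2 difference of 0.48 that 4.58% of all genes exceeded. Il1rap, on chromosome 16 from 26581791 to 26755588, had 10.2 and 10.3 FPKM, a log2 difference of -0.02. An overlapping gene, Gm20319, had 7.11 and 6.44 FPKM. The libraries were unstranded, so reads from stretches shared by both genes cannot be separated by strand. The genes overlapping Il1b, Il1a and Il1r2 (Il1bos, Gm14023 and Gm16894) had at most 0.103 FPKM. The receptor genes summed to 33.7 FPKM in Tet2 KO against 22.4 in WT, while the shared co-receptor gene was level.

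Casp1 had the largest log2 difference of the members, 1.47, which 0.941% of all genes exceeded. It lies on chromosome 9 from 5298517 to 5307281 with 10 exons in its longest coding transcript. Its level was 6.88 FPKM in Tet2 KO against 1.84 in WT. Its neighbour Casp4, on chromosome 9 from 5308849 to 5336791, encodes the caspase of the non-canonical inflammasome. Casp4 had 6.71 and 4.07 FPKM, a log2 difference of 0.60, so that both genes were near equal in Tet2 KO while Casp1 stood at 0.452 of Casp4 in WT. No stretch of the Casp1 transcript, nor of those of Il1r2, Il1rl1, Il1r1 and Il33, had a match of at least 95% identity in a coding transcript of another gene, and Il1rn had one over 2.91% of its transcript.

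In order of level, Il1rl1, Il33, Il1rap, Il1r1 and Casp1 stood between 12.4 and 6.88 FPKM in Tet2 KO, and Il1r2, Il18 and Il1b between 3.01 and 2.08 FPKM. In WT, Il1rap, Il33, Il1rl1 and Il1r1 stood between 10.3 and 5.57 FPKM, and Il1b, Il18 and Casp1 between 2.81 and 1.84 FPKM. Neighbours such as Il1rl1 and Il33 in Tet2 KO (1.02-fold apart) or, in WT, Il1rl1 and Il1r1 (1.03-fold apart) and Il1rn and Il1a (1.02-fold apart) cannot be ordered, as no spread is known. Il1rn and Il1a had the lowest values in both groups.

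**Figure D3:**
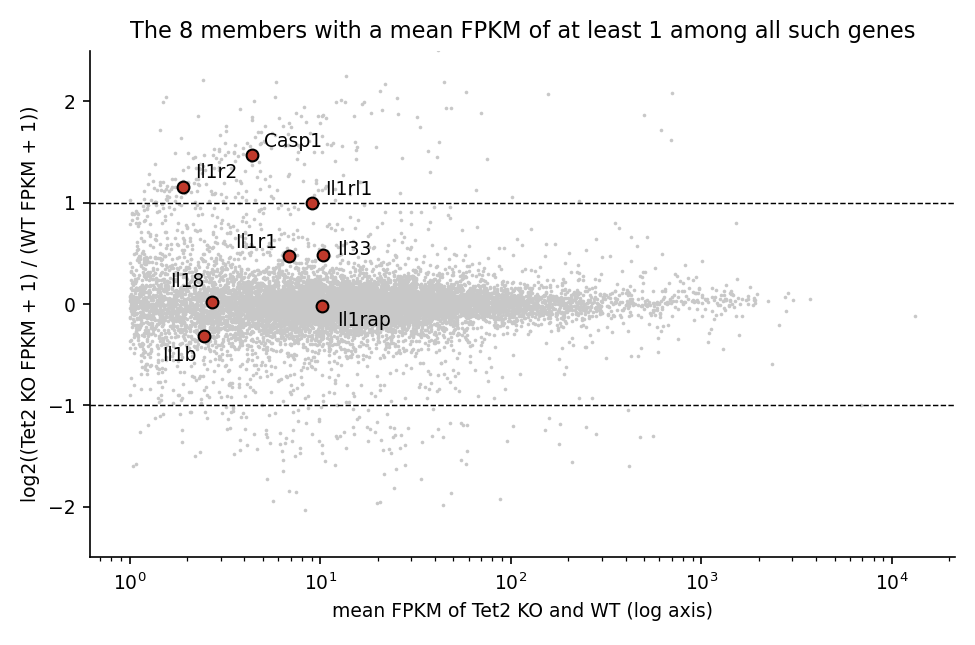
Log2 difference between Tet2 KO and WT (y axis, pseudocount of 1) against mean FPKM (x axis, log scale) for the 11692 genes with a mean of 1 FPKM or more (grey) and the 8 members among them (red, named). Dashed lines mark 2-fold, 10 genes lie above and 6 below the range of the y axis, and Il1r2 and Casp1 lie above the upper line with Il1rl1 just below it.

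The receptor genes form a cluster. In GENCODE vM1 on mm9, Il1r2, Il1r1, Il1rl2, Il1rl1, Il18r1 and Il18rap lie in this order on the plus strand of chromosome 1, from 40141613 to 40608550, a span of 467 kb. All 6 had a higher FPKM in Tet2 KO, against 48.8% of all genes with a mean of 1 FPKM or more. Their ratios were 3.79, 1.46, 2.85, 2.17, 2.73 and 1.22-fold in that order. Il1rl2 and Il18r1 had a mean under 1 FPKM, and Il1r2 passed that minimum only through its Tet2 KO value. The levels within the cluster differed far more than the ratios. Il1rl2, which encodes the receptor of the IL-36 cytokines, had 0.744 and 0.261 FPKM. Il18r1, the ligand-binding chain for IL-18, begins 136 bases after the end of Il1rl1 but had only 0.0964 FPKM in Tet2 KO against 0.0353 in WT. Il18rap, the signalling chain for IL-18, had 33.5 and 27.4 FPKM, above 87.0% of the genes of the table. The 2 chains of the IL-18 receptor therefore differed by 348-fold in Tet2 KO and 776-fold in WT. The fragments behind the low Il18r1 values are unknown, so the size of these ratios and their difference between the groups are uncertain.

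The other genes of the family were mostly low. Of 12 such genes, 3 had a mean of 1 FPKM or more, namely Il18rap, Il18bp and Sigirr, and 0 were past 2-fold. Il18bp, which encodes a soluble inhibitor of IL-18, had 17.0 and 13.2 FPKM, 6.24 and 4.93 times the FPKM of Il18. Sigirr, an inhibitory receptor of the family, had 4.86 FPKM in Tet2 KO against 5.68 in WT. Among the IL-36 group on chromosome 2, Il1f9 (IL-36γ) had 0.803 and 0.422 FPKM, and Il1f5, Il1f6, Il1f8 and Il1f10 were listed at 0 in both groups. Il1rapl2 had 0.0068 and 0.0069 FPKM, and Il1rapl1 was listed at 0 in Tet2 KO and had 0.0071 FPKM in WT.

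The inflammasome genes, which sense danger signals and activate caspase-1, were compared as a list of 17. A higher FPKM in Tet2 KO was seen for 16 of them. Of the 17, 10 lay under a mean of 1 FPKM. The 7 that reached it were all higher, against 48.8% of all such genes. Of these 7, 1 gene was past 2-fold higher (against 2.08% of all genes) and 0 were lower, and their median log2 difference was 0.32. The gene was Pycard, which encodes the adaptor ASC that links sensors to caspase-1, with 7.79 FPKM in Tet2 KO against 3.19 in WT and a log2 difference of 1.07. Gsdmd, which encodes the pore protein cut by caspase-1, was the most abundant of the list and nearly level, at 34.1 and 32.7 FPKM. All 9 sensor genes were low and higher in Tet2 KO, from 2.17-fold for Mefv to 4.91-fold for Nlrp1a. None of them reached 1 FPKM in WT, Nlrp3 had 0.689 and 0.258 FPKM, and Aim2 had 0.816 and 0.176 FPKM. The 3 Naip genes, and likewise Nlrp1a and Nlrp1b, are close paralogs, so their values are uncertain. Myeloid markers, which include no sensor, differed by a median of 4.01-fold, and their part in the sensor values was not tested.

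The signalling genes between receptor and NF-κB had a median close to that of all genes. Of 33 genes, 32 passed the minimum mean and 0 were past 2-fold higher or lower, against 2.08% and 1.21% of all genes, shares at which few calls would be seen in a list of this size. Their median log2 difference was 0.02, from -0.31 to 0.43. The most abundant by the mean of both groups was Nfkbia, which encodes the inhibitor IκBα and is itself induced by NF-κB, with 64.8 and 47.7 FPKM. Myd88, the adaptor of these receptors, had 17.0 FPKM in Tet2 KO against 16.0 in WT.

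Genes known to be induced by IL-1 and NF-κB were compared as a list of 31. All 31 had a higher FPKM in Tet2 KO, among them the 25 with a mean of 1 FPKM or more, against 48.8% of all such genes. Of these 25, 10 were past 2-fold higher (against 2.08% of all genes) and 0 lower. Of the 25, Mmp9 and Tnf passed the minimum mean only through their Tet2 KO values. Mmp9 had 1.64 FPKM against 0.521 in WT, and Tnf had 2.29 FPKM against 0.699 in WT. Neither was past 2-fold, but the median log2 difference of the 25, 0.80, was the value of Mmp9. The largest were Lcn2, an iron-binding acute phase protein (16.9 and 3.91 FPKM), and Mmp13, a collagenase (7.46 and 1.35 FPKM). C3, a complement protein, had 6.85 and 1.66 FPKM, and Ptgs2, the enzyme COX-2, had 55.1 and 18.7 FPKM. Ccl2, a monocyte chemokine and the most abundant of the list, had 183 FPKM in Tet2 KO against 121 in WT. Some genes of this list, such as Lcn2 and C3, are also made by leukocytes, whose markers are given next and whose part in these values was not tested.

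**Figure D4:**
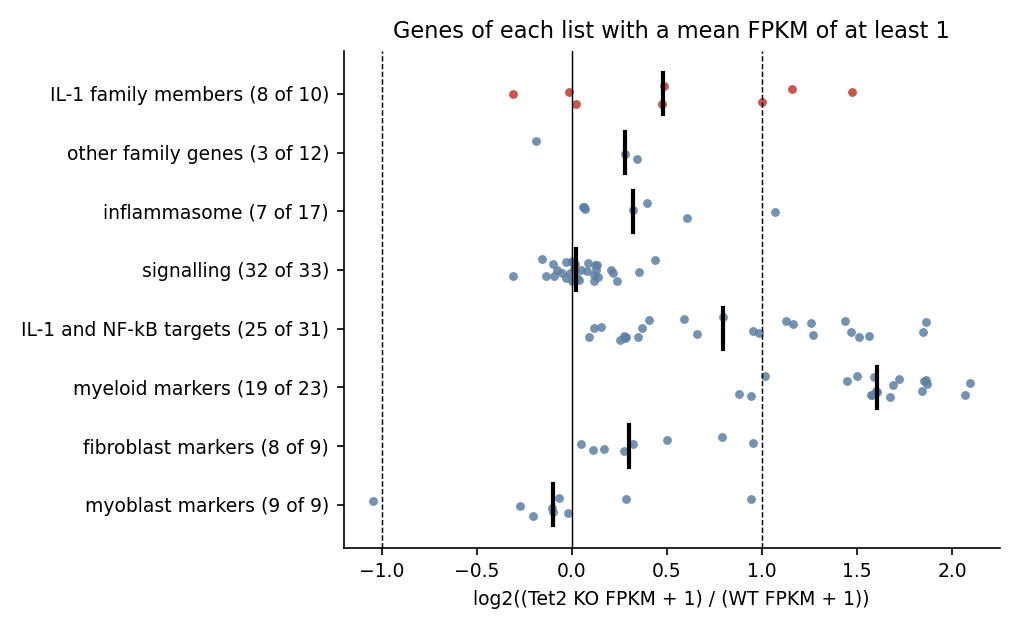
Log2 difference between Tet2 KO and WT (x axis, pseudocount of 1) for each gene with a mean of 1 FPKM or more (points) in 8 lists, with the list median (black bar) and 2-fold lines (dashed). The numbers beside a list's name are the genes shown and the genes in the list. Signalling genes cluster at 0, targets spread up to 1.86, and myeloid markers lie between 0.88 and 2.09.

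Myeloid cells are well known to express Il1b, Il1r2, Il1rn, Casp1 and most inflammasome sensors. Of 23 myeloid markers, 20 had a higher FPKM in Tet2 KO. A mean of 1 FPKM or more was reached by 19 markers, all of them higher, against 48.8% of all such genes. Of the 19, 17 were past 2-fold higher (against 2.08% of all genes) and 0 lower. Of these 17, Adgre1 passed the minimum mean only through its Tet2 KO value, with 3.67 FPKM against 0.712 in WT. The FPKM of all 23 markers summed to 2300 in Tet2 KO and 645 in WT. The median ratio of the 19 was 4.01-fold, from 2.11-fold, for Cd68, to 5.15-fold. Among the 19, only Cd68 lay below Il1rl1, at 2.17-fold. Together with those of Casp1, Il1r2 and Il1rn, the Il1rl1 ratio lay within the range of the 19. The ratios of the other 6 members lay below it, at 0.738-fold for Il1b, 0.989-fold for Il1rap, 1.02-fold for Il18, 1.45-fold for Il33, 1.46-fold for Il1r1 and 1.53-fold for Il1a. Myeloid markers under 1 FPKM in both groups were Cx3cr1, Lyz1, Cd163 and Itgax, and none of the 23 was at 0. S100a8 was the most abundant, with 941 FPKM in Tet2 KO against 285 in WT, and Lyz2 had 253 and 59.5 FPKM. The neutrophil genes S100a9, Ngp and Elane had 781, 94.8 and 16.6 FPKM in Tet2 KO, and 213, 21.5 and 3.84 FPKM in WT. Ptprc and Itgam, which encode CD45 and CD11b, against which the cells were sorted, had 5.67 and 10.1 FPKM in Tet2 KO and 1.36 and 2.09 FPKM in WT. In bulk samples more cells of a type and more RNA per cell cannot be told apart. The part of myeloid RNA in the differences of the members was not tested.

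The cells carried the markers of myoblasts in both groups. All 9 myoblast markers had a mean of 1 FPKM or more, and Myod1, the muscle determination factor, had 313 FPKM in Tet2 KO against 336 in WT. Myog, the differentiation factor, was the 1 marker past 2-fold lower (against 1.21% of all genes), at 268 and 554 FPKM. Of the 9 markers, 7 were lower in Tet2 KO and 2 higher. The 2 were Cd34 at 2.22-fold, with a log2 difference of 0.94, and Vcam1 at 1.22-fold. Vcam1 is also in the list of IL-1 and NF-κB targets. Lymphocyte markers were low, with 0 of 10 at a mean FPKM of 1 and a highest value of 1.09 FPKM for Lck. Among mast cell and basophil markers, which matter because such cells express Il1rl1, 7 of 8 were below 1 FPKM in both groups, and Mcpt8 was nearly level at 65.9 and 62.9 FPKM. None of the 8 was at 0, and 3 were higher and 5 lower in Tet2 KO, the 5 all under 1 FPKM. All 9 fibroblast markers had a higher FPKM in Tet2 KO, among them the 8 with a mean of 1 FPKM or more, against 48.8% of all such genes. Of these 8, 0 were past 2-fold higher, against 2.08% of all genes. Their median ratio was 1.35-fold, with the lowest for Ly6a and the highest, 2.23-fold, for Dcn, a matrix proteoglycan, and with Col1a2 at 1.81-fold and Pdgfra at 1.80-fold. The ratios of Il33, Il1r1, Il1rl1 and Il1a lay within that range. That of Il1rl1, at 2.17-fold, also lay within the range of the myeloid markers, near its lower end. The part of fibroblast RNA in these ratios was not tested. The most abundant fibroblast marker, Ly6a, which encodes Sca1, had 288 and 278 FPKM although the cells were sorted as Sca1 negative before culture. Of 6 endothelial markers 5 were below 1 FPKM in both groups, and Pecam1 had 1.48 and 1.63 FPKM.

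The targeted gene Tet2 had 5.79 FPKM in Tet2 KO against 6.64 in WT. As a value for the whole gene it cannot reveal the loss of exon 3, so it checks no group label.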

How the data were processed

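RNA of 4 libraries, 2 from WT and 2 from Tet2 KO primary myoblasts, was made with an unstranded TruSeq kit. The authors removed adapters and low-quality reads, aligned the pairs to mm9 with TopHat2 2.0.13 and, per the labels, used Cuffdiff 2.2.1 for FPKM. The annotation is not given in the sources used here. The deposited table holds 1 FPKM value per gene and group, read here as a combination of both libraries, and no value per library. Its columns of the authors' own comparison (log2 ratio, test statistic, p-value, q-value) were not used, so no difference was tested.

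From the FPKM values, log2((Tet2 KO + 1) / (WT + 1)) was computed and genes past 2-fold were counted among those with a mean of 1 FPKM or more. Genes of each list were named by a fixed rule: all 10 members, all other family genes, and in the other lists up to 4 of the genes furthest past 2-fold and the most abundant gene. Other genes were named beyond this rule after their values were seen. These were the inflammasome sensors, Casp4, the genes overlapping members, Myd88, Ptprc, Itgam, Adgre1, Myod1, Cd34, Vcam1, Dcn, Col1a2, Pdgfra and the lowest myeloid markers. Cd68, Mmp9 and Tnf were also among them. The members and lists were chosen with earlier results of these data known. Gene positions follow the table (mm9, starts counted from 1). Such a locus can span overlapping genes. Exons came from GENCODE vM1, in which 22 of 22 family genes were found, and copies were searched with BLAST+ 2.17.0. Promoters came from RefSeq (GRCm38.p6), where all 10 members were found with 15 starts, each window having 1 exact match in mm9. Python 3.11.15, numpy 2.4.6, pandas 2.3.3 and matplotlib 3.10.9 were used. The code for the log2 ratio was run on values with set folds and no noise, which checks the arithmetic only.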

Additional observations from a re-analysis of the deposited data

How the results depend on the processing

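No paired analysis was possible because each group has a single pooled FPKM per gene, and for the same reason no library could be left out in turn. The alternatives were a pseudocount of 0.1 or none, no filter on low values or a minimum mean of 5 FPKM, values rescaled to the same sum in both groups, centring on the median of all genes, and limits of 1.5-fold and 3-fold.

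Of the members, 2 were past 2-fold higher, against 2.08% of all genes. The count was 0 at a minimum mean of 5 FPKM (1.23% of all genes), which Casp1 and Il1r2 do not reach and 4 members do. It was also 0 past 3-fold (0.693% of all genes), a limit set on the log2 difference with its pseudocount of 1. As plain FPKM ratios, Casp1 and Il1r2 were 3.74-fold and 3.79-fold higher. Il1rl1 joined Casp1 and Il1r2 with a pseudocount of 0.1 (2.86% of all genes), without one (2.92%) and after rescaling (2.51%). It also joined them after centring (2.09%) and at the 1.5-fold limit (3.72%). The median of the members was 0.48, and 0.53 with a pseudocount of 0.1, 0.54 without one and 0.51 after rescaling. The count of IL-1 and NF-κB targets was 10, and 6 at a minimum mean of 5 FPKM (1.23% of all genes) and 2 past 3-fold (0.693%). The count of inflammasome genes was 1, and 2 past 1.5-fold (3.72% of all genes) and 0 past 3-fold (0.693%), few enough that they say little of the list. All 40 recomputed log2 differences of single members (10 members under 4 alternatives) had the sign of the main value. The remaining counts stayed within 1.5 times. The depth behind the low values of Il1a, Il1rn, Il1r2 in WT and the sensors is unknown, and a pseudocount of 0.1 moved Il1rn from 0.53 to 1.31.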
